A study of Mus musculus with 2 samples.

Results

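The liver of the mouse embryo was examined for the 37 genes that build fatty acids, make triglyceride from them and store or export it. The genes were chosen by name from textbook function, with earlier results of these data known. All 37 were found among the 43346 Ensembl genes of the deposited gene tables. They cover fatty acid synthesis (4 genes), elongation (6), desaturation (5), esterification to triglyceride (10), coating and fusion of lipid droplets (7), triglyceride lipases (2), lipogenic regulators (2) and lipoprotein assembly (1). Both libraries were total RNA-seq of liver from embryos of strain B6NCrl at 16.5 days, healthy, with male and female embryos pooled, and carried no treatment. They form 1 group of 2 biological replicates, of which the labels give 41 embryos for the pool of replicate 2 and no number for that of replicate 1. Both pools carry the same donor identifier, and nothing further is said of how they were kept apart. The libraries held 44477766 and 48820712 expected counts (reads assigned to genes, with shared reads divided). With 1 group there is no second condition to compare, so levels are described, and differences between the libraries are set against those of all genes. Levels are TPM, the usual scaled transcript abundance, which are per length and relative to all RNA of a library. An error is the SD of the 2 libraries (n = 2).

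Fatty acid synthesis starts in the cytosol from citrate, which ATP citrate lyase splits to acetyl-CoA. Acetyl-CoA carboxylase makes malonyl-CoA from it, and fatty acid synthase joins these units to palmitate, which elongases and desaturases of the endoplasmic reticulum lengthen and make unsaturated. Acyl groups are then placed on glycerol 3-phosphate in turn by glycerophosphate acyltransferase, lysophosphatidate acyltransferases and, once lipins have removed the phosphate, diacylglycerol acyltransferases. The triglyceride goes to lipid droplets or, through microsomal transfer protein, to lipoproteins. In the adult liver the pathway is known for its response to feeding, driven by SREBP-1c (gene Srebf1), ChREBP (gene Mlxipl) and LXR. The fetal liver is also the main blood-forming organ, so its RNA is a mixture of hepatocytes and blood cells.

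Most of the pathway was expressed. Of the 37 genes, 28 stood at 1 TPM or more in both libraries, where 52.2% of 21474 protein-coding genes did. In both libraries, 21 reached 10 TPM and 4 reached 100 TPM. Elovl7 passed 1 TPM in replicate 2 only, and 8 genes lay below 1 TPM in both: Acacb, Elovl3, Lpin3, Mogat1, Plin4, Cidea, Cidec and Thrsp. The median gene of the 37 was at 15.7 TPM in replicate 1 and 17.1 TPM in replicate 2, a mean of 16.4 ± 0.976. The median protein-coding gene at 1 TPM or more was at 10.8 TPM. In bulk tissue, a lower level can come from fewer cells of a type or from less RNA per cell, and these cannot be told apart here.

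**Figure D1:**
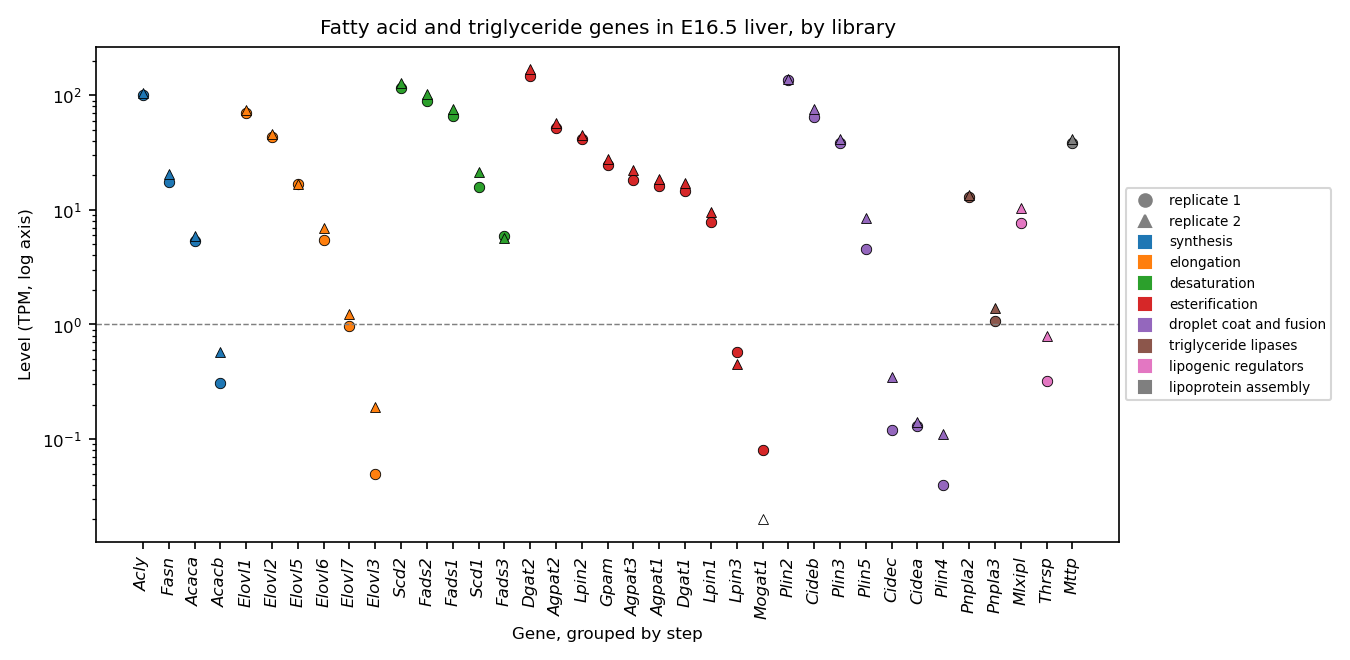
Level of each of the 37 genes in TPM (log axis) in replicate 1 (circles) and replicate 2 (triangles), coloured by step and sorted by level within it. The dashed line is 1 TPM, and the open triangle, drawn at the foot of the axis, is Mogat1 in replicate 2, which was at 0; the highest gene, Dgat2, stood at 147 and 168 TPM.

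The steps differed in level. Desaturation had the highest median of the steps with several genes, at 71.5 ± 7.16 TPM, and 5 of its 5 genes passed 1 TPM. Esterification followed at 18.9 ± 2.32 TPM, with 8 of 10 genes past 1 TPM. Synthesis stood at 12.4 ± 1.36 TPM with 3 of 4 genes, and elongation at 11.5 ± 0.484 TPM with 4 of 6. The droplet proteins had a median of 6.54 ± 2.76 TPM with 4 of 7, and held both some of the highest genes of the pathway and 3 near 0. Summed over its genes, esterification carried 344 ± 31.8 TPM, desaturation 314 ± 29.7, droplet proteins 254 ± 13.6, elongation 140 ± 6.10 and synthesis 128 ± 5.64. By sum the order of the steps thus differed from that by median. Steps also differ in the share of genes past 1 TPM, so the medians do not rank them. The 5 highest genes, Dgat2, Plin2, Scd2, Acly and Fads2, came from 4 different steps, though the place of Fads2 rests on an uncertain model length given below. Ordered by mean TPM, 12 of the 36 pairs of neighbouring genes did not overlap in their library values and 24 did, so the order is firm at the top (Dgat2, Plin2, then Scd2) and loose in the middle.

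Palmitate synthesis was led by its citrate-splitting enzyme and not by the synthase itself. Acly, ATP citrate lyase, on chromosome 11, stood at 101 TPM in replicate 1 and 104 TPM in replicate 2. The libraries were nearly equal. Fasn, fatty acid synthase, was at 17.5 and 20.7 TPM, and Acaca, acetyl-CoA carboxylase 1 of the cytosol, at 5.31 and 5.93 TPM. Both were higher in replicate 2, and the ranges of the 3 genes lay far apart. Acacb, carboxylase 2 of the mitochondrial surface, whose malonyl-CoA restrains fatty acid oxidation, was at 0.31 TPM (106 expected counts) and 0.57 TPM (175 expected counts). It was the lowest of the step in both libraries. Acly thus held 80.3% ± 1.40 of the step's TPM, and Acaca exceeded Acacb 17.1-fold in replicate 1 and 10.4-fold in replicate 2. By expected counts, which are not per length, the long Fasn transcript took 25.5% ± 1.78 of the step in place of 15.0% ± 1.12, and Acly kept the lead.

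Elongation was led by the enzymes of very long and polyunsaturated chains. Elovl1, which elongates saturated and monounsaturated very long chains, was at 69.7 and 74.2 TPM. Elovl2, which acts on long polyunsaturated chains, was at 43.1 and 45.5 TPM. Elovl5, the elongase of shorter polyunsaturated chains, was at 16.9 and 16.8 TPM. These 3 genes were nearly equal between libraries and did not overlap each other. Elovl6, which takes palmitate to stearate, was lower, at 5.45 TPM in replicate 1 and 6.92 TPM in replicate 2. Elovl1 exceeded it 11.8 ± 1.47-fold per length, but only 2.61-fold by expected counts, as the Elovl6 model of 5951 nt is long. Elovl7 stood at 0.97 and 1.23 TPM. Elovl3, an elongase known from brown fat and skin, had 3 and 12 expected counts (0.05 and 0.19 TPM). In replicate 1 that is at the 3 counts taken as the limit for a gene with none, and in replicate 2 above it. Elovl1 held 51.2% of the step in replicate 1 and 51.3% in replicate 2. By expected counts Elovl2 led instead, with 47.3% ± 0.383.

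The desaturases were high as a group, and their genes lie in 2 clusters on chromosome 19. Scd2, a stearoyl-CoA desaturase that puts a double bond into saturated chains, at chr19:44293674-44306864, was at 116 TPM in replicate 1 and 129 TPM in replicate 2. Scd1, the main form of the adult liver, at chr19:44394455-44407879, was at 15.7 and 21.2 TPM. Both were higher in replicate 2, and neither library of Scd1 came near Scd2, which exceeded it 7.38-fold and 6.07-fold. The reads of the pair can be divided wrongly only where the sequences match: of 4733 windows of 100 nt in the Scd1 transcript, 48 (1.01%) also occur in Scd2. Their expected counts were not whole, so some reads were shared. The other 2 genes of that cluster were near 0, with 3.09 and 1.02 expected counts for Scd3 and 8.03 and 4.01 for Scd4. In the other cluster, far from the first, Fads2, the delta-6 desaturase of polyunsaturated fatty acids, at chr19:10062765-10101746, was at 89.2 and 103 TPM. Fads1, the delta-5 desaturase, was at 66.5 and 76.6 TPM. Both were higher in replicate 2 and kept the same ratio, with Fads2 at 1.34 times Fads1 in each library. That order rests on length: the deposited Fads2 model has 1508 nt, and by expected counts Fads2 was at 0.564 times Fads1. The later annotation used for names gives this model 3150 nt, so the level of Fads2 per length is uncertain. Fads3, an enzyme of sphingoid bases, was at 5.87 and 5.72 TPM and was the lowest of the group. Fads3 ends 2654 bases from Fads2, on the other strand.

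**Figure D2:**
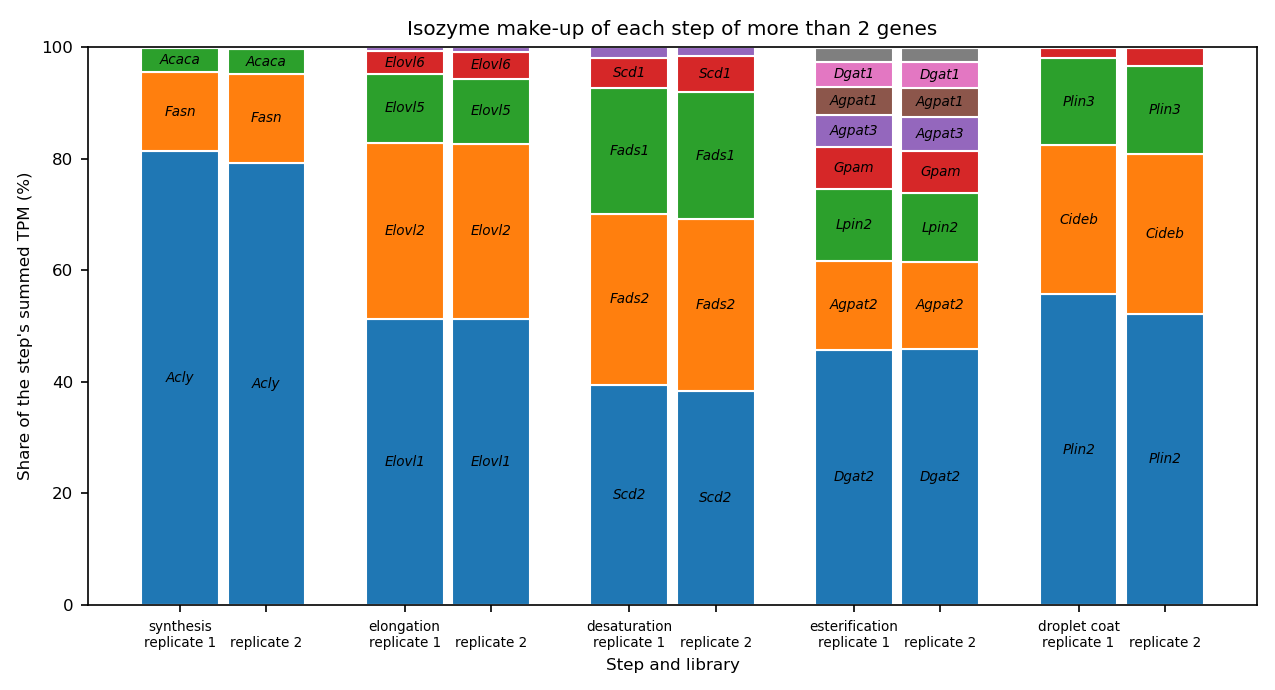
Share of each gene in the summed TPM of its step (%, stacked bars), for replicate 1 and replicate 2 side by side, in the 5 steps with more than 2 genes. Names are given for shares of 4% or more; Acly filled 81.3% and 79.3% of synthesis, while Scd2 held 39.5% and 38.4% of desaturation.

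Triglyceride esterification was dominated by its last enzyme. Dgat2, a diacylglycerol acyltransferase that uses newly made fatty acids, at chr7:99153658-99182719, was at 147 TPM in replicate 1 and 168 TPM in replicate 2. It was the highest of all 37 genes in both libraries and stood at the 97.4th percentile of protein-coding genes. Dgat1, its structurally unrelated partner that also re-esterifies, was at 14.6 and 17.1 TPM. The ranges were far apart, and Dgat2 exceeded Dgat1 10.1-fold and 9.87-fold per length, and 16.7-fold by expected counts. Coding forms held 54.0% and 54.1% of the TPM of Dgat1, and 75.7% and 74.8% of its expected counts. Earlier in the path, Gpam, the mitochondrial glycerophosphate acyltransferase that starts glycerolipid synthesis, was at 24.5 and 27.9 TPM. Gpat4, the main form of the endoplasmic reticulum, was at 22.5 and 23.5 TPM, so the 2 entry enzymes were of like level. Of the lysophosphatidate acyltransferases, Agpat2 was at 51.4 and 57.3 TPM, above Agpat3 (18.2 and 22.4 TPM) and Agpat1 (16.2 and 18.6 TPM). Agpat1 and Agpat3 overlapped in range, and Agpat2 was clear of both. Lpin2 led the lipins, the phosphatidate phosphatases, with 41.3 and 45.1 TPM. Lpin1, the form that is also a transcriptional coactivator, was at 7.87 and 9.68 TPM, and Lpin3 at 0.57 TPM (77 expected counts) and 0.45 TPM (58 expected counts). The 3 lipins did not overlap. All genes named so far in this step except Lpin3 were higher in replicate 2. The monoacylglycerol acyltransferase Mogat1 had 1 expected count in replicate 1 and 0 in replicate 2, where 3 counts would be 0.0942 TPM. Its paralog Mogat2, the form known from intestine, was at 20.9 and 21.8 TPM. Dgat2 held 45.8% ± 0.124 of the step's TPM.

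Droplet proteins split into 3 high genes, Plin5 in between and 3 genes near 0. Plin2, the coat protein found on droplets of most cells, at chr4:86648386-86670060, was at 136 TPM in replicate 1 and 138 TPM in replicate 2. Cideb, the liver member of the CIDE family, which acts in droplet fusion and lipoprotein lipidation, was at 65.2 and 75.6 TPM. Plin3, a coat protein that moves between cytosol and droplets, was at 38.3 and 41.4 TPM. Its deposited model has 2159 nt, against 3645 nt in the later annotation, so the level of Plin3 per length is uncertain. The ranges of the 3 did not overlap, and Plin2 was the steadiest, with libraries that differed by a factor of 1.01. Cideb shares 1136 exonic bases with Nop9, a gene on the other strand at 16.4 and 15.5 TPM. No label names a strand-specific step, so reads of the overlap cannot be told apart and the level of Cideb is uncertain. Plin5, a coat protein of tissues that burn fat, was at 4.58 TPM (364 expected counts) in replicate 1 and 8.49 TPM (729 expected counts) in replicate 2. It was the member with the widest gap between libraries among those past 1 TPM. The coat proteins and fusion factors known from fat cells had few counts: Cidec had 8 and 20 expected counts, Cidea 6 and 7, and Plin4 9 and 29. Plin1, the coat protein that marks mature fat cells, had no count in either library, which allows up to 0.0398 TPM in replicate 1 and 0.0369 TPM in replicate 2. Plin2 held 54.0% ± 2.50 of the droplet TPM.

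Lipase, regulator and export genes completed the list. Pnpla2, adipose triglyceride lipase, was at 13.0 and 13.4 TPM. Its close relative Pnpla3, a lipid remodelling protein of droplets whose transcription is lipogenic in adult liver, was at 1.08 and 1.40 TPM. Pnpla2 exceeded Pnpla3 in each library, by 12.1-fold and 9.58-fold per length, and by 4.43-fold in expected counts, as the Pnpla3 model of the tables has 4640 nt. That model has 1313 nt in the later annotation, so its level per length is uncertain. The partners that set the activity of Pnpla2 were both abundant: its inhibitor G0s2 was at 158 and 157 TPM, 12.1-fold and 11.7-fold above the enzyme (4.94-fold by expected counts), and its activator Abhd5 was at 19 and 19.5 TPM, 1.46-fold and 1.45-fold above it. Mlxipl, the glucose-responsive factor ChREBP, was at 7.63 TPM in replicate 1 and 10.3 TPM in replicate 2. Thrsp (Spot 14), a lipogenic protein that follows feeding and thyroid hormone in adult liver, had 16 and 43 expected counts (0.32 and 0.80 TPM). Both regulators were higher in replicate 2. Mttp, the transfer protein that loads lipid on apolipoprotein B, was at 38.6 and 41.5 TPM, and Apob itself at 149 and 172 TPM.

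Around these genes, the rest of the pathway was also expressed. Of 101 further genes on 8 lists (regulators, precursor and NADPH supply, elongation partners, desaturase paralogs, acyl-CoA synthesis and uptake, acyltransferase paralogs, droplet and lipolysis partners, lipoprotein partners), 89 passed 1 TPM in both libraries, with a median of 22.4 ± 1.05 TPM. All 18 regulators passed. Srebf1 was at 38.5 and 46.1 TPM and Srebf2, the factor of cholesterol genes, at 30.0 and 31.6 TPM. Srebf1 exceeded Srebf2 by 1.28 and 1.46 times per length, yet held 0.682 times its expected counts, since Srebf1 TPM comes in part from a transcript of 367 nt with 36.2% ± 0.445 of its TPM and 4.00% of its counts in replicate 2. Insig1, which holds SREBP back in the endoplasmic reticulum, was the highest regulator, at 58.0 and 76.5 TPM, and Ppargc1b, a coactivator of lipogenic factors, the lowest by mean, at 1.14 and 1.58 TPM. It overlapped with Pparg, at 1.27 and 1.5 TPM.

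The suppliers of substrate were mostly well expressed. The list of precursor and NADPH genes passed 1 TPM in 12 of 12, led by Idh1 (120 and 132 TPM) and, by mean, Cs (94.5 and 88.7 TPM), whose range overlapped that of Pcx (73.0 and 93.9 TPM), with Oxsm lowest (2.39 and 2.34 TPM). Of the elongation partners 8 of 9 passed, led by the electron carrier Cyb5a (677 and 659 TPM) and the reductase Tecr (226 and 244 TPM). Elovl4 was their lowest, with 4 and 14 expected counts. Fatty acid binding and uptake genes had a median of 27.1 ± 1.87 TPM, with Fabp5 at 1393 and 1348 TPM and the acyl-CoA carrier Dbi at 1024 and 992 TPM, and Acsl6 lowest at 0.74 and 0.37 TPM (54 and 29 expected counts). Among acyltransferase and phosphatase paralogs, Lpcat3 (70.4 and 77.3 TPM) and Plpp1 (42.3 and 40.5 TPM) led, and Gpat2 was lowest (0.24 and 0.33 TPM, 26 and 38 expected counts). Of droplet partners 11 of 17 passed, led by G0s2 and Hsd17b13 (79.1 and 96.2 TPM), with Plin1 lowest; Hilpda, another inhibitor of Pnpla2, was at 23.0 and 28.3 TPM. Lipoprotein partners passed in 9 of 9, led by P4hb, the partner subunit of the transfer protein, at 704 and 790 TPM, with Tm6sf2 lowest at 1.60 and 2.58 TPM. Among the desaturase paralogs only 2 of 5 passed, Degs1 of ceramide synthesis (66.4 and 62.6 TPM) and Fads6 (3.89 and 3.96 TPM). For scale, 23 genes of fatty acid oxidation and ketogenesis had a median of 92.6 ± 2.23 TPM and 20 genes of cholesterol synthesis one of 73.2 ± 2.11 TPM. Both were several times the median of the 37 genes, on the same TPM scale. The lists differ in make-up, however: all 23 and all 20 genes passed 1 TPM in both libraries, where 28 of the 37 did. The medians therefore do not rank the pathways.

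The tissue label was checked with marker lists of hepatocytes and of other cell types the tissue could hold. Hepatocyte markers passed 1 TPM in 10 of 10 genes, led by Trf at 16577 and 19839 TPM, and erythroid markers in 9 of 9, led by Hba-a2 at 144854 and 143473 TPM. Neutrophil (7 of 7), macrophage (8 of 8) and endothelial (6 of 6) markers were present as well, with S100a8, C1qb and Lyve1 the highest of each. Of 10 markers of fat cells, 4 had no count in either library (Lep, Cfd, Plin1 and Ucp1), 3 passed 1 TPM, and the summed level was 35.5 TPM in replicate 1 and 30.9 TPM in replicate 2. Most of that sum was Fabp4, at 31.2 and 26.0 TPM, which endothelial cells and macrophages also express. Mesenchymal markers summed to 212 and 262 TPM, with Col3a1 the highest and no marker at 0 in both libraries. Skeletal muscle markers summed to 119 TPM in replicate 1 and 282 TPM in replicate 2, 2.37-fold higher, with Acta1 highest, at 76.0 and 182 TPM. Gut and pancreas markers summed to 10.2 and 30.2 TPM, 2.95-fold higher in replicate 2, with Fabp2 the highest, and Cdx2 was at 0 in replicate 1.

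The libraries differed little for single genes of the pathway, but in a shared direction. The ratio of TPM + 1, replicate 2 over replicate 1, was taken on the log2 scale and centred on the median of the 12017 genes whose expected counts averaged at least 100. Of the 37 genes, 30 passed this filter, and Elovl3, Lpin3, Mogat1, Plin4, Cidea, Cidec and Thrsp did not. A difference past 1.5-fold in either direction was found for 1 of the 30 genes, Plin5, where 1.13% of all genes tested passed it. Past 2-fold there was 0 of 30, where 0.416% of all genes passed. The centred ratio was above 0 for 27 of the 30, against 50.0% of all genes, and its median was 0.17. The quartiles of all genes lay at -0.11 and 0.12: 20 of the 30 genes were above the upper one, 10 lay between them and 0 were below the lower one. With 1 library on each side there is no test, and genes of a pathway are not independent, so these counts describe the 2 libraries only. The fold of counts, scaled by the median gene, had an exact 95% Clopper-Pearson interval that excluded 1 for 25 of the 30, where it did for 48.9% of all genes tested. That interval covers counting error alone, and it is narrow for genes with many counts. When libraries were scaled to the spike-in RNA instead, all genes shifted to a median of -0.29 and the 30 genes to -0.16, with 5 above 0. This scaling multiplies every TPM of replicate 2 by the same factor. Apart from the pseudocount it cannot change the place of the 30 genes relative to all genes, which was 0.13 higher.

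**Figure D3:**
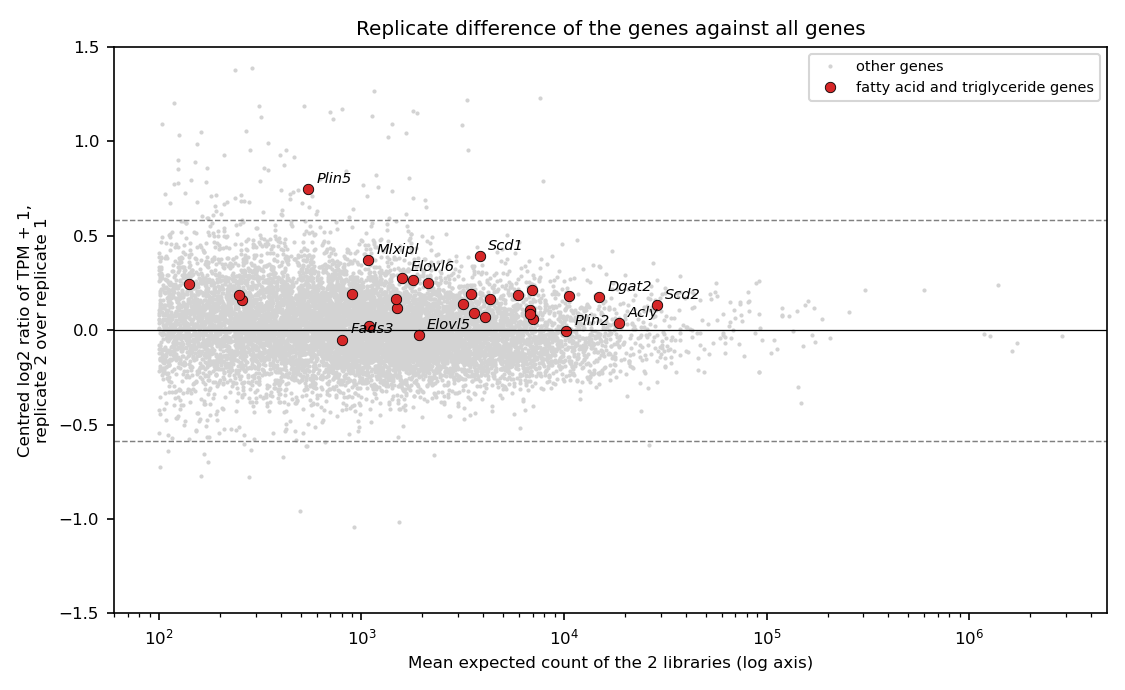
Centred log2 ratio of TPM + 1, replicate 2 over replicate 1, against the mean expected count (log axis) for the 12017 genes tested; 25 of them lie outside the plotted range. Red points are the 30 genes of the pathway that passed the count filter, of which 27 lie above 0, and the dashed lines mark 1.5-fold.

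By step, esterification had 8 of 8 tested genes above 0, with a median of 0.17 and a range of 0.11 to 0.27, and synthesis 4 of 4, with a median of 0.16. Desaturation had 4 of 5, with a median of 0.18, and elongation 4 of 5, with a median of 0.07. Droplet proteins had 3 of 4, with a median of 0.14, and the lipases 2 of 2, with a median of 0.10. Differences between the steps were not tested. After Plin5, the largest ratios were those of Scd1 (0.39), Mlxipl (0.37), Elovl6 (0.28) and Agpat3 (0.27). The count fold of Scd1 was 1.33 (interval 1.27 to 1.39), that of Mlxipl 1.32 (1.21 to 1.44) and that of Elovl6 1.25 (1.16 to 1.34). Of the other enzymes of palmitate synthesis and its use, Fasn had a ratio of 0.21, Gpam 0.16, Acaca 0.12 and Acly 0.04. At the other end, Fads3 (-0.05), Elovl5 (-0.03) and Plin2 (0.00) did not share the shift. Of the regulators named above, Insig1 had a ratio of 0.37.

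Other gene lists had ratios of their own. Hepatocyte markers had a median ratio of 0.13, with 8 of 10 above 0, and macrophage markers one of 0.11. Stellate and mesenchymal markers had one of 0.23, with 6 of 6 above 0 and a summed TPM 1.23 times higher in replicate 2. Erythroid markers had a median of -0.03, fatty acid oxidation genes 0.08 and cholesterol synthesis genes -0.01, the last with 10 above 0 and 10 below. The summed TPM of hepatocyte markers was 1.10 times higher in replicate 2, against 1.11 times for the sum of the 37 genes. The part of hepatocyte and mesenchymal content, and of the muscle and gut transcripts given above, in the shift of the pathway was not tested.

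**Figure D4:**
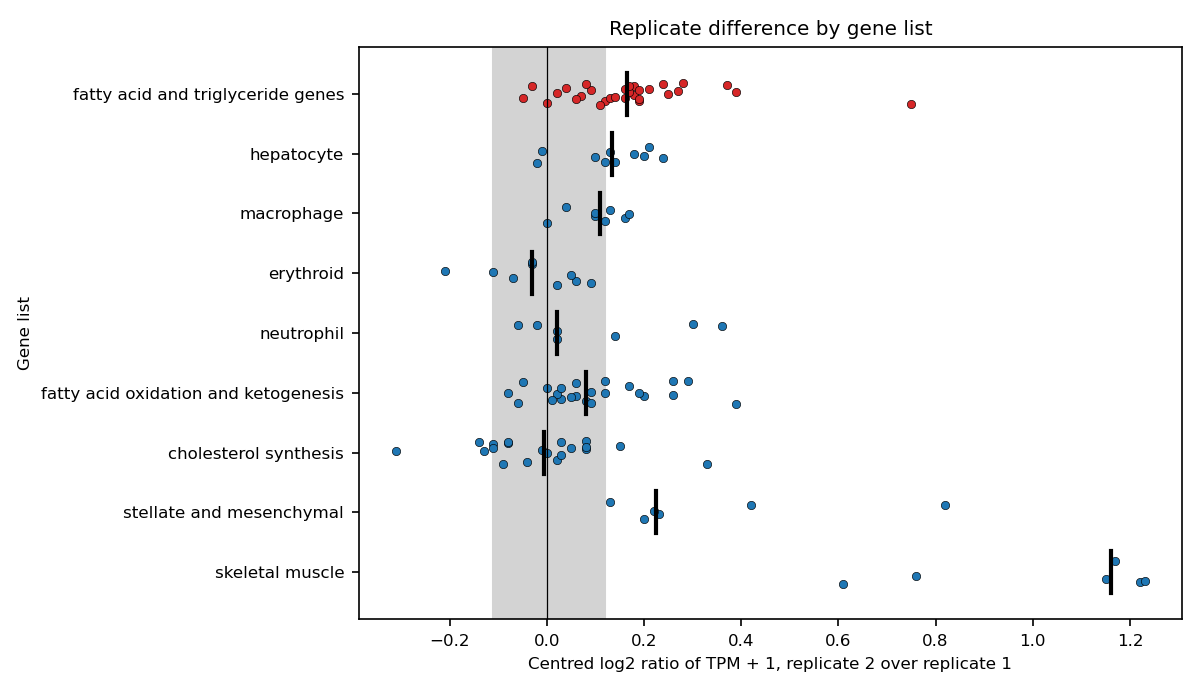
Centred log2 ratio of TPM + 1, replicate 2 over replicate 1, for each gene that passed the count filter (points) on the pathway list (red) and on 8 marker or comparator lists (blue), with the median of each as a black bar. The grey band spans the quartiles of all genes, -0.11 to 0.12; the pathway median is 0.17, that of hepatocyte markers 0.13 and that of skeletal muscle markers 1.16.

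Plin5 was the exception in size. Its centred log2 ratio was 0.75, and its count fold was 1.83 with an interval of 1.61 to 2.08. Plin4, with 9 and 29 expected counts, had a count fold of 2.94 (interval 1.35 to 7.05). Thrsp, with 16 and 43, had one of 2.45 (interval 1.35 to 4.66). Lpin3, with 77 and 58, had one of 0.686 (interval 0.480 to 0.978). All 3 stand below the count filter, and their intervals exclude 1, upward for Plin4 and Thrsp and downward for Lpin3. The other genes below the filter, Elovl3, Cidec, Cidea and Mogat1, had intervals that include 1. The share of all genes below the filter whose interval excludes 1 was not computed. Plin4 and Plin5 are neighbours on chromosome 17, 1797 bases apart on the same strand. All 6 skeletal muscle markers were past 1.5-fold in the same direction, with ratios from 0.61 to 1.23; Plin5 and Plin4 are known from muscle as well as liver and fat. The part of muscle RNA in their difference was not tested. With a pseudocount of 5, or with spike-in scaling, the ratio of Plin5 was 0.48 and 0.45 and no longer past 1.5-fold.

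Transcript tables allowed the forms of these genes to be compared. The 37 genes had 144 transcripts in the tables, all found in the later annotation used for names, 20 of them with another length there. Of the 28 expressed genes, 18 had several transcripts, and in 17 of these the same transcript led in both libraries. The exception was again Plin5, with 2 transcripts of 1986 nt that differ in their start. The form with the upstream start was at 2.06 TPM in replicate 1 and 6.35 TPM in replicate 2, and its deposited intervals (0.852 to 3.27 and 4.39 to 8.0) did not overlap. The form with the downstream start was at 2.52 and 2.14 TPM with intervals that overlapped. The difference of the gene thus lay in the transcript of the upstream start, which held 45.0% of the gene's TPM in replicate 1 and 74.8% in replicate 2.

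**Figure D5:**
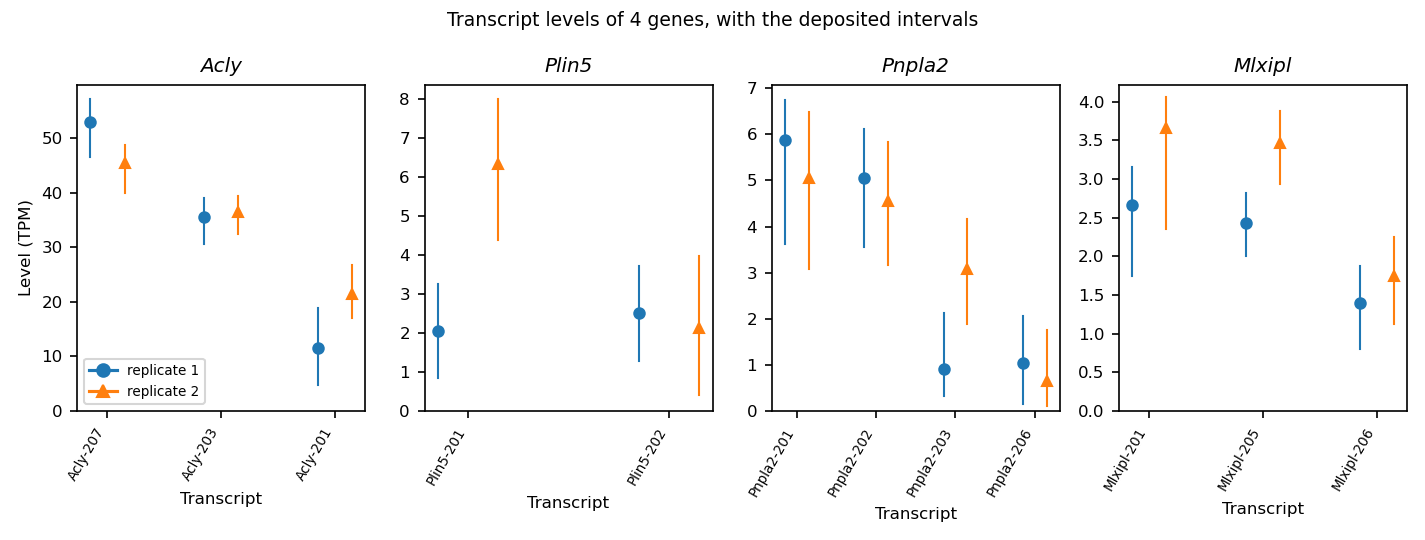
TPM of the transcripts at a mean of 0.5 TPM or more of Acly, Plin5, Pnpla2 and Mlxipl in replicate 1 (circles) and replicate 2 (triangles); vertical lines are the deposited TPM intervals, whose level the files do not state. For the Plin5 form with the upstream start (left in the Plin5 panel) the intervals of the libraries do not overlap (0.852 to 3.27 and 4.39 to 8.0), and for the other form they do.

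Starts are those of the later annotation, and may differ in the deposited models where a transcript has another length, as the upstream form of Lpin1 and the leading form of Mlxipl do. Several genes used more than 1 start or gave much of their TPM to forms with no full reading frame. Acly was divided between starts 4402 bases apart: the downstream start carried 52.6% of its TPM in replicate 1 and 43.4% in replicate 2, and the upstream start 46.8% and 55.4%. Lpin1 had 2 starts, with 68.9% and 65.8% of its TPM at the downstream start and the rest 21196 bases upstream. Mttp took 95.9% and 98.2% of its TPM from 1 of its 2 transcripts. In Pnpla2 the leading transcript of both libraries, at 5.88 and 5.05 TPM, is annotated as subject to nonsense-mediated decay, and coding forms held 53.6% and 61.8%. The lead is not firm, as a coding form followed at 5.05 and 4.56 TPM. The intervals of these forms overlapped in replicate 1 (3.63 to 6.75 and 3.55 to 6.11) and in replicate 2 (3.09 to 6.48 and 3.16 to 5.84). Coding forms held 54.0% and 54.1% of the TPM in Dgat1, and 63.0% and 63.4% in Lpin2. These shares are per length, and most of the other forms are short. By expected counts the coding form of Dgat1 held 75.7% and 74.8%, and the leading coding form of Lpin2 alone 81.9% and 83.8%. In Mlxipl a coding form led (2.66 and 3.66 TPM), closely followed by a retained-intron form (2.43 and 3.46 TPM), and coding forms together held 38.7% and 38.8%. The intervals of the retained-intron form (2.01 to 2.82 and 2.94 to 3.88) did not overlap. Among the genes below 1 TPM, the leading form of Acacb was one coding transcript in replicate 1 and another in replicate 2, on intervals that overlapped. The 1 count of Mogat1 fell on a non-coding transcript. Shares of transcripts are estimates that rest on the few reads that tell them apart.

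Promoter sequences are shown for the genes whose starts the data bear on. Plin5 has a start for each of its 2 transcripts, 298 bases apart on chromosome 17. The stretch before the upstream start (chr17:56117597-56117798, minus strand) and the stretch between the first exon of the upstream form and the start of the downstream form (chr17:56117299-56117501, minus strand) follow, 5′ to 3′, from RefSeq's build GRCm38.p6. Capitals mark the NF-Y box CCAAT or its complement ATTGG and the GC box GGGCGG.
Plin5 upstream start: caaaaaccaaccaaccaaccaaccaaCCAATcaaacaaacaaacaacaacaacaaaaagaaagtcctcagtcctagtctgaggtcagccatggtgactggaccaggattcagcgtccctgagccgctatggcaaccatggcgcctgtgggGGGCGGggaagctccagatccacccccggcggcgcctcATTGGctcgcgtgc
Plin5 downstream start: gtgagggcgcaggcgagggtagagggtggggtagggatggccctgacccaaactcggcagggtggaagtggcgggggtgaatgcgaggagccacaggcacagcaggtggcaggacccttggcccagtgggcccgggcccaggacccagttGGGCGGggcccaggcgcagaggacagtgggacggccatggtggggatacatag
The upstream start has CCAAT boxes and a GC box in front of it. The downstream start has a GC box and no CCAAT in the stretch printed. Any link of these motifs to the difference between libraries was not tested.

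For the lipogenic genes, windows from 250 bases before to 50 after each RefSeq start (build GRCm38.p6) were searched on both strands, so that palindromes count once. The motifs were the E-box CACGTG bound by ChREBP, SREBP and USF, the NF-Y box CCAAT, the GC box GGGCGG, the sterol regulatory element core TCACCCCAC, the TATA box TATAAA, and AGGTCA repeated after 1 or 4 bases. The table held 40 windows for 30 of the 37 genes; Elovl3, Scd1, Scd2, Fads1, Dgat1, Dgat2 and Cidea had none. CACGTG lay in 5 of the 40 windows (12.5%), against 7.15% of all 32851 windows. CCAAT lay in 17 (42.5%, against 37.4%) and GGGCGG in 23 (57.5%, against 35.7%). TATAAA lay in 2 (5.0%, against 13.6%). TCACCCCAC and both AGGTCA repeats were in 0 windows, where they occur in 0.551%, 0.0396% and 0.0152% of all. A match is a description of letters, and windows of 1 gene are not independent.

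The E-box windows of Plin2, Elovl5, Lpin2 and Mlxipl are printed with that of Fasn, a well known lipogenic target, to show how the motifs are placed. They are chr4:86670058-86670309 (minus), chr9:77917115-77917364 (plus), chr17:71183282-71183531 (plus), chr5:135089640-135089889 (plus) and chr11:120824548-120824797 (minus). Capitals mark CACGTG, and CCAAT or ATTGG.
Plin2: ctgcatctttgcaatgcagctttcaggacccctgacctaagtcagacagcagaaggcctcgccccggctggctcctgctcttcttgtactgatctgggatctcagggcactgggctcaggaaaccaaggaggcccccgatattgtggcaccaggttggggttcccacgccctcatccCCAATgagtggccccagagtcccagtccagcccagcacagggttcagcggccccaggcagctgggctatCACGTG
Elovl5: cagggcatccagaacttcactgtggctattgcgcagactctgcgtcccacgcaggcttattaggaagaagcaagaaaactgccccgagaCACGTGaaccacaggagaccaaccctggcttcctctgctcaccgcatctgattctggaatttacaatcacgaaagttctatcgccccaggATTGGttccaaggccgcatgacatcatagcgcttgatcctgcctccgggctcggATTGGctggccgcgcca
Lpin2: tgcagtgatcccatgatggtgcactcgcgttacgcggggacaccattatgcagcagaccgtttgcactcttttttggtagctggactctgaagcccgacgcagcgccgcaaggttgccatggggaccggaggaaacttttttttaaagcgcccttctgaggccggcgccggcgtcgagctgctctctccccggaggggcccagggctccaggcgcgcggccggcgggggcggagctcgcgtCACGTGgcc
Mlxipl: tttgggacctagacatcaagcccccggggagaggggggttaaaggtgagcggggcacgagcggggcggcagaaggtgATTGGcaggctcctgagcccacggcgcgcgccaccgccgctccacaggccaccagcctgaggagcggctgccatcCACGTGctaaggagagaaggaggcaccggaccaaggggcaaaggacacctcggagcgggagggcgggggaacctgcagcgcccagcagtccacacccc
Fasn: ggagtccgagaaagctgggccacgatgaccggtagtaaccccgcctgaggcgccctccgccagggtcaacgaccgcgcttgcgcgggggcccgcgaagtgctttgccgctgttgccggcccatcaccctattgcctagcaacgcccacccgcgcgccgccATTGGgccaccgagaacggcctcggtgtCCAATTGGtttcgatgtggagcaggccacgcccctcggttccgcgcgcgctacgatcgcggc
In Plin2 the E-box begins 4 bases before the start and runs across it, and that start carried 95.2% and 94.4% of the gene's TPM. In Elovl5 it lies 161 bases upstream, followed by 2 CCAAT boxes in the reverse direction, 71 and 17 bases from the start. In Lpin2 it lies 9 bases upstream of a start that carried 11.2% and 8.29% of the gene's TPM, while most came from another start with no E-box in its window. The Mlxipl window belongs to a start 17028 bases upstream of the leading transcript, with the E-box 98 bases before it. By the later annotation, no transcript of the deposited tables begins within 100 nt of it, and the start with 96.2% and 96.7% of the TPM had no motif of the set. The Fasn window had 3 CCAAT boxes, 2 of which overlap on opposite strands, and no CACGTG. The fifth E-box lay in Lpin3, behind a start that held 0% of its TPM.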

How the data were processed

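Total RNA longer than 200 nt was extracted from pooled liver, 10 ng entered each library with spike-in RNA, and no molecular identifiers are named, per the labels' protocols. The authors deposited gene and transcript tables with expected counts, TPM and FPKM, on mm10 with GENCODE M4; the aligner's and counting program's versions are not given in the sources used here. Deposited posterior mean TPM and TPM intervals (signal values, whose level is not stated) and the authors' percent of a gene by transcript are estimates of the same counting. Symbols and coordinates came from GENCODE M21 on GRCm38. The 37 genes and all lists were chosen with earlier results of these data known; named genes are the members, the pair of highest genes and the lowest gene of each other pathway list, direct partners of members (such as Srebf1, G0s2 and Apob), and of marker lists the highest and those at 0. Mogat2, Pparg and Pcx were named after their values were seen. Expected counts totalled 44477766 and 48820712, of which spike-ins took 2.50% and 3.19%. Ratios used log2(TPM + 1), centred on genes with a mean expected count of at least 100. Intervals on count folds are exact Clopper-Pearson at 95% and, like the limit of 3 counts for a gene at 0, cover counting error only. Transcript starts within 100 nt were merged. With 1 group of 2 libraries no test was run. Alternatives changed the pseudocount, filters, scaling (edgeR 4.0.16 TMM, DESeq2 1.42.0 size factors, spike-ins) and unit; those on the order of the genes were chosen after seeing the data. Scripts ran in Python 3.11.15 (numpy 2.4.6, pandas 2.3.3, scipy 1.17.1) and R 4.3.3 and were tested on simulated data.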

Additional observations from a re-analysis of the deposited data

How the results depend on the processing

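Of 78 alternative values, 59 kept their direction and size within set limits, 19 did not, and 1 of these reversed. Some of the 59 could not have changed in size. For median levels and leading shares the limit was the SD of the 2 libraries, and leaving out 1 library always moves the mean by less. Numbers of genes at a level, past a fold or with the same leading transcript had a wide limit of 1.5-fold. Thus 21 genes at 10 TPM were taken as kept beside 28 at 1 TPM. The ratio of Plin5 was also bound to be equal under each count filter, as the centring stayed the same. The reversal was the median ratio of the 30 genes, 0.17 as reported and -0.16 with spike-in scaling, where all genes shifted to -0.29. The median level of 16.4 TPM was 15.4 in FPKM, 18.5 rescaled to protein-coding genes and 26.8 without globins and spike-ins, and leaving out 1 library gave 15.7 to 17.1. By expected counts the leading share was 68.5% in synthesis, 47.3% in elongation (Elovl2 in place of Elovl1), 57.6% in desaturation, 42.0% in esterification, 57.4% in droplet proteins, 81.5% in lipases and 97.5% in regulators. By posterior mean TPM it was 51.1% in elongation and 45.4% in esterification. Genes past 1.5-fold numbered 2 with a pseudocount of 0.1 (Acacb and Plin5), 0 with one of 5 and 0 with spike-in scaling. The shares of all genes tested were 2.61%, 0.499% and 4.07%. Spike-in ratios were not centred, so their counts are not like for like with the others. The ratio of Plin5 was 0.48 with a pseudocount of 5 and 0.45 with spike-in scaling. Of the 3 highest genes, counts kept 2, Scd2 and Dgat2, and put Acly in place of Plin2. The cause was not tested, except that counts are not per length. No paired analysis was possible because there is only 1 group. With 2 libraries the spread is poorly known, and levels of genes under 100 counts are imprecise. Whether the libraries are strand-specific is not stated, so overlaps such as that of Cideb limit single levels.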
